A study of Mus musculus with 56 samples.

Results

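The genes described here are 7 matrix metalloproteinases (MMPs), Mmp2, Mmp3, Mmp9, Mmp10, Mmp11, Mmp13 and Mmp14, and 3 tissue inhibitors of metalloproteinases (TIMPs), Timp1, Timp2 and Timp3. They were chosen by name, with earlier results of these data known, and are 10 of the 20314 genes in the expression table. All 10 passed the filter on low values, as did 13754 genes in all. They are not all the MMPs measured: of 16 other MMP genes, 10 passed the filter too. RNA-sequencing was done on 56 samples of mouse cell lines established from mammary tumors of MMTV-PyMT mice, which express the polyoma middle T oncogene under a mammary promoter. The cells carried 1 of 7 β-catenin (Ctnnb1) genotypes: fl/fl, D164A/fl, D164A/-, ΔC/fl, ΔC/-, dm/fl and dm/-. A floxed allele (fl) behaves as wild type until it is cut by Cre recombinase, and β-catenin with the D164A mutation does not bind Bcl9 or Bcl9l. The labels do not spell out ΔC and dm. The cells with a deleted second allele (-) were derived from their floxed counterparts by infection with an adenovirus for Cre and GFP and sorting for GFP, so that they differ from them by infection and sorting too. Each genotype was grown in 4 conditions, without and with TGFβ (2 ng/ml for 4 days) and without and with Wnt3a (100 ng/ml for 3 days), and each cytokine had its own untreated cells. Each of the 28 conditions had 2 biological replicates. The study had more than 1 fl/fl line, but the labels do not give the line of a sample, and genotype and line therefore cannot be told apart.

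MMPs are secreted or membrane-bound zinc proteinases that cut collagens, laminins and other matrix proteins, and release growth factors held in the matrix. They are made as inactive proenzymes, are activated by cleavage, and are held in check by TIMPs, which block the active site. In mammary tumors they are known for matrix remodelling during invasion, and TGFβ, which drives epithelial-mesenchymal transition, is a known inducer of several of them. Mmp2 and Mmp9 are the gelatinases, which degrade denatured collagen and the collagen IV of basement membranes. Mmp3 and Mmp10 are stromelysins of broad specificity, and Mmp11 (stromelysin 3) is secreted in active form. Mmp13 is an interstitial collagenase, and Mmp14 is a membrane-type MMP that activates proMMP2 together with Timp2. Timp1 and Timp2 are soluble inhibitors, and Timp3 is bound to the matrix.

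Mmp3, Mmp10 and Mmp13 lie in a run of MMP genes on chromosome 9, and their proximal promoters are printed here because these neighbours share short motifs that the other members with a sequence lack. The sequences are from RefSeq (GRCm38.p6, the patch release of mm10) and run 5′ to 3′ over the 100 bases before the start of the gene. Capitals mark TGANTCA, the consensus of AP-1 factors, and TATAAA.
Mmp3, chr9:7445722-7445821, + strand: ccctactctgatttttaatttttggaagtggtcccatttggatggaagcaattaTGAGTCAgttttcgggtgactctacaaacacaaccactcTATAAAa
Mmp10, chr9:7502242-7502341, + strand: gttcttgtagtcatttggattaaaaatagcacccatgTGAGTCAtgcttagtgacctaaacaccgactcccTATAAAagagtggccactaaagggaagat
Mmp13, chr9:7272414-7272513, + strand: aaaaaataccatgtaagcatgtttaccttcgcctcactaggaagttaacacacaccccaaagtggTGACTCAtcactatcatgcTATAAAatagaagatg
Promoter windows of 300 bases were at hand for 8 of the 10 members, not for Mmp2 and Mmp9. TGANTCA, which reads alike on both strands, begins 46, 63 and 35 bases before the start of Mmp3, Mmp10 and Mmp13. It is in none of the windows of Mmp11, Mmp14, Timp1, Timp2 and Timp3, and in 7.93% of all 27025 promoter windows. TATAAA on the strand of the gene is in the same 3 members and in 8.88% of all windows. CTTTGA, the core of the site of TCF/LEF factors, was searched on both strands and is in the window of Timp1 alone among the 8, and in 16.2% of all windows. The matches describe letters in these windows and not binding.

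Levels are given as CPM, the deposited counts per M reads of a library size scaled by the authors. Libraries held 22.4 to 33.7 M (mega) reads assigned to genes (median 26.8 M), and 3 reads corresponded to 0.0917 to 0.146 CPM. Of the 7 epithelial markers, Epcam, Cdh1, Krt8 and Krt18 were at 49.9 CPM or more in all 56 samples, Cldn4 and Cldn7 went down to 1.47 and 0.294 CPM, and Krt19 was at 0 in 29 samples. Of the 5 myoepithelial markers, Krt14 was at 7.99 to 2694 CPM and Krt5 at 0 to 974 CPM. Some markers of leukocytes (Ptprc at most 0.208, Cd3e at most 0.0828 CPM) and of endothelium (Tie1 at most 0.0637, Kdr at most 0.297 CPM) were at or near 0. So were Lum (at most 0.0800 CPM) and Thy1 (at most 0.116 CPM) of the fibroblast markers. Others on the same lists were not. Pdgfra was at 2.71 to 302 CPM, Cd68 at 1.10 to 79.4 CPM and Csf1r at 0.0708 to 529.7 CPM (median 9.46 CPM). Col1a1 was at 0.221 to 70.9 CPM. Pdgfrb (to 494 CPM), Col3a1 (to 184 CPM), Cdh5 (to 35.0 CPM) and Col1a2 (to 15.6 CPM) were at 0 in some samples. Over each whole list, the summed CPM of the 8 fibroblast markers ranged from 5.58 to 779 without and from 25.8 to 507 with TGFβ, and that of the 6 immune markers from 1.31 to 436 and from 3.67 to 449. That of the 4 endothelial markers ranged from 0 to 0.533 and from 0.0661 to 35.1, and that of the myoepithelial markers from 34.2 to 600.0 and from 20.6 to 521. The part of such cells in the results was not tested. Ctnnb1 was at 531 to 3188 CPM, a value per gene that does not separate its alleles.

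Changes are log2 fold changes of CPM + 1 from limma, fitted to all 56 samples, with the standard error (SE) and a Benjamini-Hochberg adjusted p over all genes tested. A gene counted as changed, or called, where the adjusted p did not exceed 0.05 and the size of the log2 change was 1 or more, that is 2-fold. The pseudocount of 1 understates the changes of genes near 0.

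The first question was how TGFβ moved the MMPs and their inhibitors, and whether it did so in all genotypes. TGFβ raised Mmp9 in all 7 genotypes, Mmp10 and Mmp13 in 5 each, Timp1 in 2, and Mmp3, Mmp11 and Mmp14 in 1 each. Timp3 fell in 3 genotypes, and Timp2 rose in 1 and fell in 1. Mmp2 was called in none by limma. Of 70 values (10 members in 7 genotypes) 27 were called, 23 of them up.

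The members up and down, beside the share of all genes called in that direction, were as follows. In fl/fl cells 3 members rose (3.31% of all genes) and none fell (2.94%). In D164A/fl cells 1 rose (2.5%) and none fell (0.88%), and in D164A/- cells 4 rose (2.7%) and none fell (1.36%). In ΔC/fl cells 3 rose (3.24%) and 1 fell (4.49%), and in ΔC/- cells 5 rose (2.86%) and 1 fell (3.69%). In dm/fl cells 3 rose (3.45%) and 2 fell (6.88%), and in dm/- cells 4 rose (3.68%) and none fell (2.44%). The median change of the 10 members was 0.43 (dm/fl) to 1.75 (D164A/-) on the log2 scale, against -0.03 to 0.03 over all genes tested. With only 2 replicates a condition, 12 of the 27 calls held whichever single library was left out, among them all 3 in fl/fl cells and none of the 4 in dm/- cells.

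**Figure D1:**
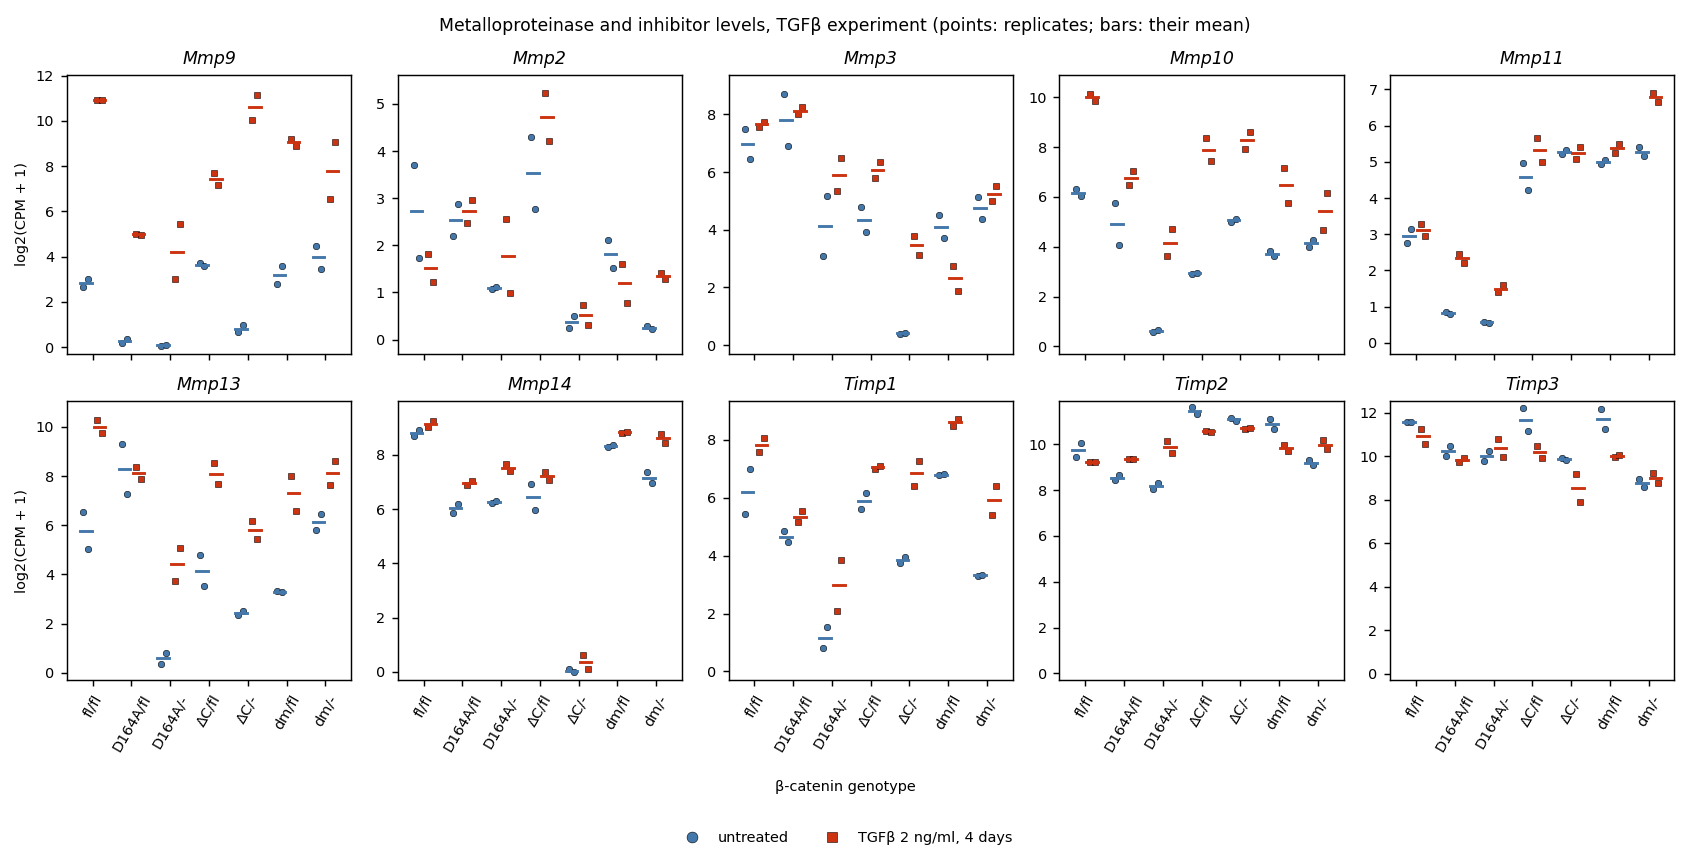
Levels of the 10 members in the TGFβ experiment, as log2(CPM + 1), in each of the 7 β-catenin genotypes. Points are the 2 replicates of untreated and TGFβ-treated cells and bars their mean: the treated points of Mmp9 lie above the untreated ones in all 7 genotypes, whereas Timp2 and Timp3 move both ways.

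Mmp9 (gelatinase B, Entrez 17395, chr2:164940326-164955850) rose in every genotype, and had the largest single changes among the members, in fl/fl and ΔC/- cells. In fl/fl cells it was at 5.35 and 7.04 CPM in untreated replicates 1 and 2 and at 1922 and 1949 CPM with TGFβ (log2 8.08, SE 0.86, adjusted p = 2.59e-08). In ΔC/- cells it rose from 0.582 and 0.944 CPM to 1061 and 2293 CPM (log2 9.80, SE 0.86, adjusted p = 6.69e-10). In no sample of the other 5 genotypes did Mmp9 pass 588 CPM.

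In dm/fl cells Mmp9 rose from 5.90 and 11.0 CPM to 588 and 476 CPM (log2 5.87, adjusted p = 4.76e-06). It was at 12.1 and 10.9 CPM before treatment of ΔC/fl cells and at 206 and 144 CPM after it (log2 3.80, adjusted p = 0.00248). In dm/- cells the treated replicates, at 92.3 and 529.8 CPM, differed more from each other than the untreated ones, at 21.0 and 10.0 CPM (log2 3.84, adjusted p = 0.00301). The call in dm/- cells was lost without treated replicate 2 (log2 2.58, adjusted p = 0.179) or untreated replicate 2 (3.34, 0.0777).

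The D164A lines started and ended lower. In D164A/fl cells Mmp9 rose from 0.142 and 0.289 CPM to 31.0 and 30.1 CPM (log2 4.70, adjusted p = 5.24e-04). In D164A/- cells 0.0386 and 0.0762 CPM, 3 reads over both replicates, stood against 7.01 and 42.6 CPM with TGFβ. The ratio of the summed reads was 460-fold (95% interval 157 to 2232, counting error only), and the call (log2 4.14, adjusted p = 0.00158) was lost without treated replicate 2 (2.92, 0.146). The rise was called in every genotype, yet the treated level of D164A/- cells in replicate 1, 7.01 CPM, was no higher than that of untreated fl/fl cells in replicate 2.

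Mmp2 (gelatinase A, Entrez 17390, chr8:92827290-92853421) stayed low. It ranged from 0.150 to 36.3 CPM over the 56 samples, with a median of 1.39 CPM. Its highest values in this experiment were those of ΔC/fl cells, at 18.7 and 5.84 CPM without and 36.3 and 17.4 CPM with TGFβ (log2 1.17, SE 0.50, adjusted p = 0.168). Levels of 0.214 and 0.177 CPM in dm/- cells stood against 1.67 and 1.45 CPM with TGFβ, and in fl/fl cells 12.1 and 2.32 CPM against 2.53 and 1.32 CPM. Neither difference passed limma's test (adjusted p = 0.223 and 0.196). The rise in dm/- cells was called in edgeR's test of the reads (log2 2.96, adjusted p = 0.0225).

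**Figure D2:**
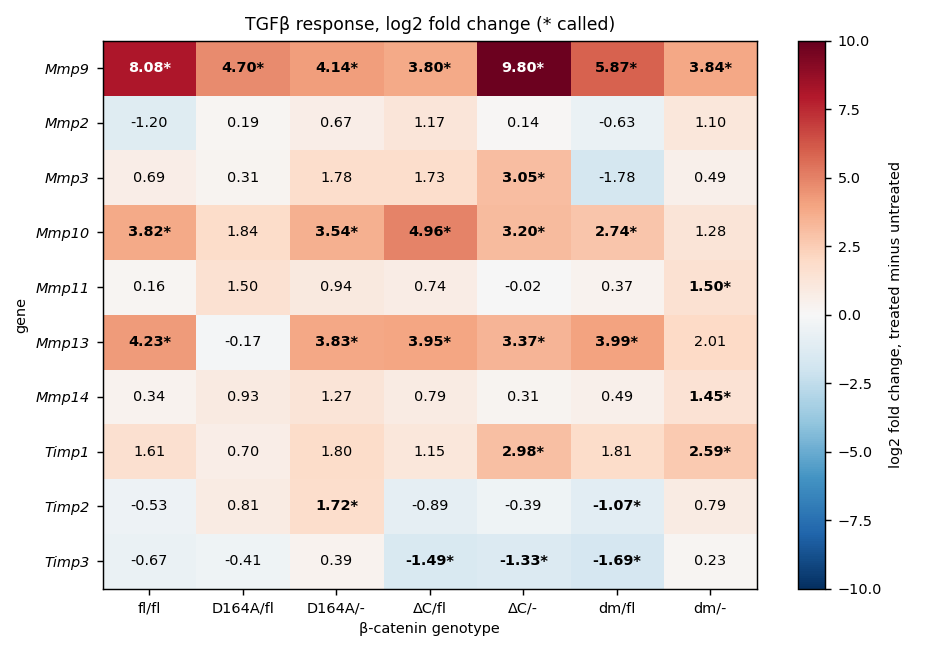
TGFβ responses of the 10 members (rows) in the 7 β-catenin genotypes (columns), as log2 fold changes of CPM + 1 from limma, treated minus untreated, with red for higher and blue for lower levels with TGFβ. Values in bold with an asterisk were called: 7 of 7 for Mmp9, 5 of 7 for Mmp10 and Mmp13, and none for Mmp2.

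Among the stromelysins, Mmp10 (Entrez 17384, chr9:7502342-7510242) rose in 5 genotypes. In fl/fl cells it went from 78.4 and 64.6 CPM to 1133 and 918 CPM (log2 3.82, SE 0.64, adjusted p = 6.33e-05). In ΔC/fl cells, where its change was largest, it went from 6.56 and 6.73 CPM to 325 and 171 CPM (log2 4.96, adjusted p = 1.11e-06). It went from 30.9 and 34.0 CPM to 244 and 384 CPM in ΔC/- cells (log2 3.20, adjusted p = 8.59e-04). Both ΔC lines thus reached the same range with TGFβ from untreated levels that did not overlap.

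In D164A/- cells Mmp10 rose from 0.502 and 0.571 CPM to 11.4 and 24.9 CPM (log2 3.54, adjusted p = 2.64e-04), a treated level below that of untreated fl/fl cells. In dm/fl cells it rose from 13.2 and 11.2 CPM to 143 and 53.6 CPM (log2 2.74, adjusted p = 0.00242), and this call was lost without treated replicate 1 (2.05, 0.105). In D164A/fl cells (53.5 and 15.9 to 88.1 and 131 CPM) and dm/- cells (14.97 and 18.2 to 24.4 and 70.5 CPM) the treated samples were above the untreated ones, but the test was not passed (adjusted p = 0.111 and 0.286). The fitted change of Mmp10 was thus above 0 in all 7 genotypes, and 5 of them were called.

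Mmp3 (stromelysin 1, Entrez 17392, chr9:7445822-7455975), whose promoter window holds the same motifs as that of Mmp10, was called in ΔC/- cells only. There it went from 0.311 and 0.346 CPM to 12.8 and 7.78 CPM (log2 3.05, SE 0.83, adjusted p = 0.0156), and the call was lost without any 1 of the 4 libraries (log2 2.73 to 3.37, the largest adjusted p = 0.138). It was already at 181 and 85.6 CPM in untreated fl/fl cells and at 189 and 214 CPM with TGFβ. It was lower with TGFβ in both replicates of dm/fl cells, 5.73 and 2.70 CPM against 21.7 and 12.0 CPM, a difference that did not pass the test (log2 -1.78, adjusted p = 0.206). In the other 4 genotypes the change was 0.31 to 1.78 on the log2 scale, with none called.

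Mmp11 (stromelysin 3, Entrez 17385, chr10:75923221-75932502, minus strand) was called in dm/- cells, where it rose from 41.3 and 34.8 CPM to 118 and 100.3 CPM (log2 1.5, SE 0.48, adjusted p = 0.0463). This call was lost without any 1 of the 4 libraries (adjusted p up to 0.286) and in edgeR's test of the reads (adjusted p = 0.101). The same log2 change of 1.5 in D164A/fl cells, from 0.814 and 0.740 CPM to 4.45 and 3.65 CPM, missed the threshold in limma (adjusted p = 0.0673). That change was called by edgeR (log2 2.38, adjusted p = 0.0255). Mmp11 was level in ΔC/- cells, at 36.5 and 39.0 CPM without and 33.0 and 41.7 CPM with TGFβ.

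Mmp13 (collagenase 3, Entrez 17386, chr9:7272514-7283333) rose in 5 genotypes. It went from 90.9 and 31.8 CPM to 1227 and 867 CPM in fl/fl cells (log2 4.23, SE 0.86, adjusted p = 8.08e-04). In dm/fl cells it went from 8.92 and 8.73 CPM to 254 and 95.1 CPM (log2 3.99, adjusted p = 9.84e-04). In ΔC/fl cells 26.5 and 10.5 CPM stood against 372 and 201 CPM with TGFβ (log2 3.95, adjusted p = 0.00161), a call lost without untreated replicate 2 (3.32, 0.0542). The fl/fl cells were the only ones in which Mmp13 passed 800 CPM.

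In ΔC/- cells Mmp13 rose from 4.11 and 4.72 CPM to 70.5 and 42.7 CPM (log2 3.37, adjusted p = 0.00884), and the call was lost without treated replicate 1 (3.01, 0.101) or either untreated replicate. In D164A/- cells it rose from 0.270 and 0.762 CPM to 12.3 and 32.9 CPM (log2 3.83, adjusted p = 0.00355), and the call was lost without treated replicate 2 (3.16, 0.121) or untreated replicate 1 (3.59, 0.0687). In dm/- cells, at 55.1 and 85.8 CPM without and 200.0 and 390.3 CPM with TGFβ, the change did not pass the test (log2 2.01, adjusted p = 0.18).

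D164A/fl cells stood apart for Mmp13. They had 628 and 154 CPM without TGFβ, the highest untreated values of any genotype in this experiment, and 330.0 and 232 CPM with it (log2 -0.17, SE 0.86). The sign of this value turned without untreated replicate 1 (0.84) or treated replicate 2 (0.08) and after removal of the GC trend (0.23). The untreated D164A/fl cells of the Wnt3a experiment had 7.05 and 0.793 CPM of Mmp13, so the 2 untreated sets of this genotype differed by 99.7-fold in their means.

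Mmp14 (MT1-MMP, Entrez 17387, chr14:54431598-54442456) was called in 1 line. It rose in dm/- cells from 163.8 and 123 CPM to 437 and 345 CPM (log2 1.45, SE 0.45, adjusted p = 0.0423). That call was lost without any 1 of the 4 libraries (adjusted p up to 0.329) and in edgeR's test (adjusted p = 0.0973). In fl/fl cells, with the highest levels, it was at 409 and 479 CPM without and 521 and 605 CPM with TGFβ (log2 0.34). The fitted change was 0.31 to 1.45 on the log2 scale over the 7 genotypes, and was called in dm/- cells only. In ΔC/- cells all values were at or near 0, at 0.0776 and 0 CPM without and 0.540 and 0.0790 CPM with TGFβ.

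Among the inhibitors, Timp1 (Entrez 21857, chrX:20870166-20874737) had a fitted change above 0 in all 7 genotypes, and was called in 2. In ΔC/- cells it rose from 12.46 and 14.5 CPM to 84.3 and 152 CPM (log2 2.98, SE 0.66, adjusted p = 0.00249), a call lost without treated replicate 2 (2.56, 0.0726). In dm/- cells it rose from 8.89 and 9.16 CPM to 41.5 and 84.3 CPM (log2 2.59, adjusted p = 0.00981), a call lost without treated replicate 2 (2.08, 0.18) or either untreated replicate. The highest levels were those of dm/fl cells, at 108 and 111 CPM without and 359 and 418 CPM with TGFβ (log2 1.81, adjusted p = 0.0708). The lowest were those of D164A/- cells, at 0.733 and 1.90 CPM without and 3.26 and 13.4 CPM with TGFβ (log2 1.80, adjusted p = 0.139). That rise was called by edgeR (log2 2.66, adjusted p = 0.0372).

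Timp2 (Entrez 21858, chr11:118301061-118355411, minus strand) moved both ways. It rose in D164A/- cells from 261 and 314 CPM to 1142 and 785 CPM (log2 1.72, SE 0.29, adjusted p = 1.22e-04). It fell in dm/fl cells from 2223 and 1652 CPM to 995 and 837 CPM (log2 -1.07, adjusted p = 0.0108), a call lost without untreated replicate 1 (-0.86, 0.199) or treated replicate 2 (-0.95, 0.129). In ΔC/fl cells 3143 and 2549.8 CPM stood against 1561 and 1497 CPM with TGFβ. That difference, -0.89 on the log2 scale with an adjusted p of 0.0496, was below the size required for a call. The treated level of Timp2 was higher in both D164A lines and dm/- and lower in fl/fl, both ΔC lines and dm/fl.

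Timp3 (Entrez 21859, chr10:86300412-86349505) fell in 3 lines. In dm/fl cells it went from 4603 and 2466 CPM to 1016 and 1065 CPM (log2 -1.69, SE 0.43, adjusted p = 0.00546), a call lost without untreated replicate 1 (-1.24, 0.189). In ΔC/fl cells it went from 4729.5 and 2320.1 CPM to 1444 and 966 CPM (log2 -1.49, adjusted p = 0.0209), a call lost without untreated replicate 1 (-0.97, 0.387) or treated replicate 2 (-1.20, 0.214). In ΔC/- cells it went from 966 and 899 CPM to 576 and 238 CPM (log2 -1.33, adjusted p = 0.0481), a call lost without 3 of the 4 libraries and in edgeR's test (adjusted p = 0.0904). In fl/fl cells it was at 3069 and 3072 CPM without and 2459 and 1512 CPM with TGFβ (log2 -0.67, adjusted p = 0.628). In both D164A lines and in dm/- cells the change was -0.41 to 0.39 on the log2 scale.

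Timp1 and Timp3 lie within the spans of Syn1 and Syn3, on the opposite strand. Syn1 shares no exon base with Timp1 and was at 0.0772 to 14.4 CPM. Syn3 shares 1733 exon bases with Timp3 and was at 0 to 28.7 CPM, against 238 to 4963 CPM for Timp3. Whether the counting used strand is not given in the sources used here.

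The next question was whether these responses differed between genotypes. Each mutant was compared with fl/fl, and the cells with a deleted second allele with their floxed counterparts, by an interaction term in the same fit. Of 90 such values 7 were called, and the comparisons with fl/fl share the fl/fl samples.

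The response of Timp2 in D164A/- cells, a rise, was higher than in fl/fl cells, where it went from 705 and 1078 CPM to 607 and 598 CPM. The difference was 2.25 on the log2 scale (SE 0.42, adjusted p = 4.92e-04), and 1 of 10 members was called in this comparison (4.28% of all genes). In dm/- cells Timp2 went from 634 and 546 CPM to 1166 and 885 CPM, and its response was higher by 1.86 than the fall in dm/fl cells (SE 0.42, adjusted p = 0.00279). Both differences held whichever library was left out.

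In the same comparison of dm/- with dm/fl, in which 2 of 10 members were called (7.31% of all genes), the response of Timp3 was higher by 1.93 (SE 0.61, adjusted p = 0.0454). In dm/- cells Timp3 was at 492 and 378 CPM without and 591 and 435 CPM with TGFβ. This call was lost without any 1 of 7 of the 8 libraries (adjusted p up to 0.309) and in edgeR's test (adjusted p = 0.0534).

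The response of Mmp9 in ΔC/- cells exceeded that in ΔC/fl cells by 6.0 on the log2 scale (SE 1.22, adjusted p = 0.00268), the only member called there (3.13% of all genes), and this held without any 1 library. Compared with fl/fl cells, the response of Mmp9 was smaller in ΔC/fl cells (log2 -4.28, adjusted p = 0.047) and in dm/- cells (log2 -4.24, adjusted p = 0.0497). Mmp9 was the only member called by limma in either comparison (2.69% and 2.78% of all genes). Both calls rested on the whole set of libraries: the first was lost without any 1 of the 8, the second without 7 of the 8, and both in edgeR's test (adjusted p = 0.184 and 0.202). For dm/- cells edgeR called Mmp2 instead, with a response higher by 4.87 than in fl/fl cells (adjusted p = 0.0177) and by 3.88 than in dm/fl cells (adjusted p = 0.0343). Neither was called by limma, where the lowest adjusted p of Mmp2 over the 9 comparisons was 0.0637. Untreated dm/- cells were at only 0.214 and 0.177 CPM of Mmp2, and edgeR was not run with a library left out.

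Mmp13 responded less in D164A/fl than in fl/fl cells (log2 -4.40, SE 1.21, adjusted p = 0.0293), the only member called there (3.81% of all genes). The call was lost without 6 of the 8 libraries, most of all without untreated D164A/fl replicate 1 (-3.39, 0.296), and in edgeR's test (adjusted p = 0.0659). No member was called for D164A/- against D164A/fl (1.35% of all genes), ΔC/- against fl/fl (2.01%) or dm/fl against fl/fl (4.04%). In these 3 comparisons 2, 0 and 1 members had an unadjusted p under 0.05 in limma, and edgeR called 0 members in each.

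The third question was how the untreated lines differed. Untreated levels were compared in the TGFβ experiment and, in other samples, in the Wnt3a experiment. They gave the most calls among the members: 57 of 90 values were called in the first and 50 of 90 in the second, most of them lower than in the reference cells (47 and 37). Of these calls 29 and 31 held whichever single library was left out. The comparisons with fl/fl, which gave 40 of the 57 and 38 of the 50 calls, share the untreated fl/fl samples of their experiment. Samples of the other genotypes recur in the comparisons of deleted with floxed second allele. The values are therefore not independent of each other. A large share of all genes also differed between lines.

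In the TGFβ experiment, 6 members were called in D164A/fl cells against fl/fl cells (14.7% of all genes), 10 in D164A/- (19.4%), 5 in ΔC/fl (16.0%), 8 in ΔC/- (22.0%), 5 in dm/fl (16.0%) and 6 in dm/- (14.0%). Between deleted and floxed second allele, 5 members were called in the D164A lines (16.5%), 7 in the ΔC lines (12.0%) and 5 in the dm lines (16.1%). In the Wnt3a experiment the counts against fl/fl were 8 in D164A/fl (19.7%), 7 in D164A/- (17.1%), 7 in ΔC/fl (13.8%), 6 in ΔC/- (15.4%), 5 in dm/fl (32.7%) and 5 in dm/- (18.3%). Between deleted and floxed second allele they were 2 in the D164A lines (3.21%), 3 in the ΔC lines (8.16%) and 7 in the dm lines (16.5%).

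All 10 members were called lower in D164A/- than in fl/fl cells in the TGFβ experiment, and 7 of 10 were called lower in the Wnt3a experiment. The median difference over the 10 members was -2.64 and -1.52 on the log2 scale, against -0.02 and 0.01 over all genes tested. Mmp10, at 0.502 and 0.571 CPM against 78.4 and 64.6 CPM, differed by -5.55 (SE 0.64, adjusted p = 1.83e-08), and in the Wnt3a experiment by -5.34 (adjusted p = 5.15e-08). Timp1 differed by -5.05 (adjusted p = 2.32e-07) and by -3.92 (adjusted p = 2.1e-05).

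Mmp13 in D164A/- cells was lower than in fl/fl cells (log2 -5.20, adjusted p = 1.28e-05) and in the Wnt3a experiment likewise (log2 -5.43, adjusted p = 7.33e-06). Of the 10 calls in the TGFβ experiment 6 held without any 1 library. Against D164A/fl cells, Mmp13 differed by -7.71 in the TGFβ experiment (adjusted p = 2.08e-08), where D164A/fl was high, and by -0.30 (adjusted p = 1) in the Wnt3a experiment, where it was not.

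Mmp14 was almost absent from ΔC/- cells. In all 8 ΔC/- samples it was at 0 to 0.540 CPM, against 121 and 60.8 CPM in untreated ΔC/fl cells of the TGFβ experiment and 27.8 and 80.7 CPM in those of the Wnt3a experiment. In the TGFβ experiment 2 reads stood against 4942, a ratio of 2516-fold (95% interval 696 to 20779, counting error only). In the Wnt3a experiment 0 reads stood against 2729, and Mmp14 was at least 892-fold lower, with a floor of 3 reads over both replicates. The difference was called in limma in both experiments (adjusted p = 1.86e-12 and 4.75e-11), with a fitted log2 value of -6.39 and -5.60 that depends on the pseudocount.

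The genes next to Mmp14 on chromosome 14 were not at 0 in these cells. Mrpl52 and Lrp10, the nearest neighbours on either side, had mean levels of 19.5 and 149 CPM in untreated ΔC/- cells and 20.2 and 193 CPM in ΔC/fl cells of the TGFβ experiment. Mmp14 was lower than in fl/fl cells in both D164A lines too, in the TGFβ experiment by log2 -2.76 for D164A/fl and -2.53 for D164A/- (adjusted p = 1.75e-05 and 4.18e-05). In the Wnt3a experiment these values were -1.64 and -1.54, calls lost in the limma fit to only that experiment (adjusted p = 0.0608 and 0.0889). It was called lower in ΔC/fl cells in both experiments (edgeR log2 -2.29 and -2.65, adjusted p = 0.00197 and 5.86e-04). In dm/- cells it was called lower in the TGFβ experiment alone (limma log2 -1.63, adjusted p = 0.00813).

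**Figure D3:**
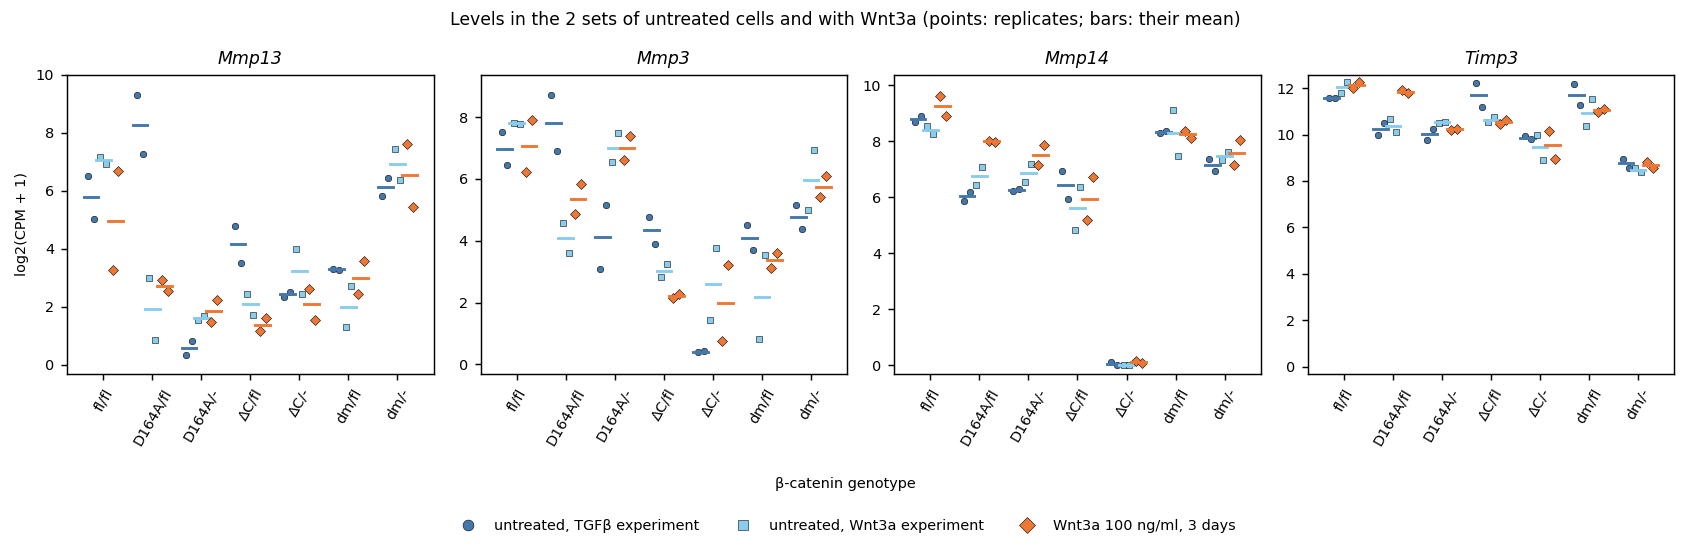
Levels of Mmp13, Mmp3, Mmp14 and Timp3 as log2(CPM + 1) in the 2 sets of untreated cells and in Wnt3a-treated cells of each genotype. Points are the replicates and bars their mean: Mmp14 is at or near 0 in all ΔC/- samples, and the 2 untreated sets of D164A/fl cells lie far apart for Mmp13 and Mmp3.

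Mmp11 differed from fl/fl cells in opposite directions in the ΔC and dm lines and in the D164A lines, in which allele and line cannot be told apart. Against fl/fl cells, at 5.80 and 7.90 CPM, it was called higher in all 4 ΔC and dm lines of the TGFβ experiment, by 1.63 to 2.32 on the log2 scale, with levels of 17.6 to 41.3 CPM. It was called lower in both D164A lines, at 0.457 to 0.814 CPM (log2 -2.13 and -2.39, adjusted p = 0.00111 and 1.87e-04). In the Wnt3a experiment the ΔC and dm lines were again called higher, by 1.38 to 2.74. The D164A lines, at 0.693 to 2.79 CPM against 4.29 and 4.45 CPM, did not pass the test there (adjusted p = 0.101 and 0.11). The ΔC/fl call of that experiment was lost in limma after removal of the GC trend (log2 0.75, adjusted p = 0.11). In the limma fit to only that experiment it was lost too (adjusted p = 0.2), as was the ΔC/- call (adjusted p = 0.0543). The call in ΔC/fl cells was lost without 2 of the 4 libraries in the TGFβ experiment (adjusted p up to 0.194) and 3 of the 4 in the Wnt3a experiment (up to 0.697), where that in ΔC/- cells was lost without ΔC/- replicate 1 (1.67, 0.0555).

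Mmp2 was lower with a deleted second allele in all 3 pairs of the TGFβ experiment. In the ΔC pair 0.194 and 0.409 CPM stood against 18.7 and 5.84 CPM (log2 -3.16, SE 0.50, adjusted p = 1.56e-05). In the dm pair 0.214 and 0.177 CPM stood against 3.36 and 1.85 CPM (log2 -1.56, adjusted p = 0.0224), and in the D164A pair 1.12 and 1.18 CPM stood against 3.61 and 6.30 CPM (log2 -1.43, adjusted p = 0.0368). The call in the dm pair was lost without 3 of its 4 libraries (adjusted p up to 0.223) and that in the D164A pair without any 1 of the 4 (up to 0.27). In the Wnt3a experiment the ΔC and D164A pairs were again called lower (log2 -1.74 and -3.03), the first of them lost without 3 of the 4 libraries (adjusted p up to 0.451), and the dm pair was not called (log2 -0.61, adjusted p = 0.43).

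Timp1 was called lower with a deleted second allele in all 3 pairs of the TGFβ experiment (log2 -3.48 for D164A, -2.04 for ΔC and -3.47 for dm), and the call in the ΔC pair was lost without any 1 of its 4 libraries (adjusted p = 0.0686 to 0.193). In the Wnt3a experiment it was called in the dm pair (log2 -2.44, adjusted p = 0.00666), a call lost without dm/- replicate 1 (-1.77, 0.169), and the values of the other pairs were -1.06 and -1.49 (adjusted p = 0.778 and 0.173).

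Timp3 was lower in dm/- than in dm/fl cells in both experiments, at 492 and 378 against 4603 and 2466 CPM in the first (log2 -2.96, SE 0.43, adjusted p = 2.24e-06) and at 381 and 338 against 1304 and 2981 CPM in the second (log2 -2.45, adjusted p = 5.34e-05). Timp2 was lower in the same pair, at 634 and 546 against 2223 and 1652 CPM (log2 -1.70, adjusted p = 3.52e-05), and again in the Wnt3a experiment (log2 -1.58, adjusted p = 1.2e-04). All 3 inhibitors were thus called lower in dm/- than in dm/fl cells, in both experiments.

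Of the proteinases, Mmp9 went the other way in dm/- cells of the Wnt3a experiment, at 94.1 and 336 CPM against 36.7 and 7.35 CPM in dm/fl (log2 3.34, SE 0.86, adjusted p = 0.00447), a call lost without replicate 2 of dm/- (2.42, 0.106) or of dm/fl (2.25, 0.0691). In the TGFβ experiment the same lines, at 21.0 and 10.0 against 5.90 and 11.0 CPM, did not differ beyond their spread (log2 0.78, adjusted p = 0.626). Mmp13 was higher in dm/- than in dm/fl cells in both experiments (log2 2.83 and 4.91, adjusted p = 0.0149 and 5.06e-05), and the first call was lost without 3 of the 4 libraries. Mmp3 and Mmp10 were called higher in the Wnt3a experiment alone (log2 3.77 and 2.75, adjusted p = 9.84e-04 and 0.00165). Without dm/fl replicate 1 their calls were lost (log2 2.41 and 1.73), and that of Mmp10 also without dm/- replicate 2 (2.07).

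The 2 sets of untreated cells show how far the members vary in 1 genotype, although they belong to different experiments. Folds between their means are given where both were at least 1 CPM. Timp2 differed between the sets by at most 2.08-fold in any genotype, Mmp14 by at most 1.70-fold, and Timp3 by at most 2.22-fold. Timp1 differed by 5.92-fold in D164A/-, 4.13-fold in ΔC/- and 4.25-fold in dm/- cells, and Mmp10 by up to 5.92-fold, in D164A/fl cells. Mmp3 differed by up to 15.8-fold and Mmp13 by up to 99.7-fold, both in D164A/fl cells, where Mmp3 was at 419 and 119 CPM in the TGFβ experiment and at 22.8 and 11.1 CPM in the Wnt3a experiment. Mmp9 differed by up to 13.9-fold, in dm/- cells.

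The last comparison asked whether Wnt3a, the activating ligand of the β-catenin pathway, moved the members. Axin2, a direct target of the pathway, checks the treatment: in fl/fl cells it went from 0.252 and 0.652 CPM to 121 and 51.0 CPM. In dm/- cells it was at 0 CPM in both untreated replicates and at 0 and 0.0791 CPM with Wnt3a. Over all genotypes of this experiment it was at 0 to 3.19 CPM without (median 0.715 CPM) and 0 to 154 CPM with Wnt3a (median 81.4 CPM).

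Wnt3a changed 3 members in D164A/fl cells (4.15% of all genes) and none elsewhere. Mmp2 fell from 18.4 and 12.6 CPM to 2.55 and 2.32 CPM (log2 -2.24, SE 0.50, adjusted p = 0.00319), a call lost without untreated replicate 1 (-1.99, 0.0692). Timp2 rose from 656 and 892 CPM to 1805 and 1529.7 CPM (log2 1.12, SE 0.29, adjusted p = 0.0154), a call lost without 3 of the 4 libraries. Timp3 rose from 1639 and 1097 CPM to 3883 and 3500.2 CPM (log2 1.46, SE 0.43, adjusted p = 0.0392), a call lost without any 1 of the 4. The untreated D164A/fl cells of the TGFβ experiment had 3.61 and 6.30 CPM of Mmp2, less than those of the Wnt3a experiment.

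In the other 6 genotypes none of 60 values was called by limma, 2 had an unadjusted p under 0.05, and edgeR called 0. The share of all genes called was 0.378% in fl/fl, 0.654% in D164A/-, 0.225% in ΔC/fl, 0.0509% in ΔC/-, 0.574% in dm/fl and 0.0% in dm/-. Mmp9, which TGFβ raised in every line, was at 10.7 and 10.3 CPM without and at 4.70 and 33.4 CPM with Wnt3a in fl/fl cells. Mmp7, a metalloproteinase outside the 10 that was looked at after its values were seen, was at 0.270 and 0.360 CPM without and 9.58 and 6.95 CPM with Wnt3a in D164A/fl cells, and at 0 and 0.0844 against 1.39 and 3.65 CPM in D164A/- cells.

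To set proteinases against inhibitors on 1 scale, CPM was divided by the length of the gene's exons in kb (GENCODE vM21) and summed over the 7 MMPs and the 3 TIMPs. The values are levels of RNA per length, and say nothing of protein or activity. In fl/fl cells the ratio of summed MMP to summed TIMP RNA was 0.423 and 0.229 without and 2.77 and 2.55 with TGFβ. In ΔC/- cells it was 0.0455 and 0.0545 without and 0.828 and 1.42 with TGFβ, and in ΔC/fl cells 0.0475 and 0.0363 without and 0.658 and 0.454 with it. The MMPs thus exceeded the TIMPs in both treated replicates of fl/fl cells.

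In dm/fl cells the ratio was 0.0703 and 0.102 without and 0.554 and 0.363 with TGFβ, and in dm/- cells 0.415 and 0.456 without and 0.594 and 1.21 with it. In D164A/- cells it was lowest among treated cells, at 0.100 and 0.144 without and 0.138 and 0.343 with TGFβ. In these 3 genotypes too no treated replicate was within the untreated range of the same experiment, except replicate 1 of D164A/- cells, which lay between the untreated values. Untreated cells of the Wnt3a experiment had ratios of 0.759 and 1.14 in dm/- and 0.247 and 0.314 in D164A/- cells. These lay between the TGFβ-treated values of the same genotype. In dm/fl cells they were 0.153 and 0.0532, below the treated values. In D164A/fl cells the ratio was 2.08 and 0.484 without and 1.12 and 1.07 with TGFβ, so that the treated values lay between the untreated ones.

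**Figure D4:**
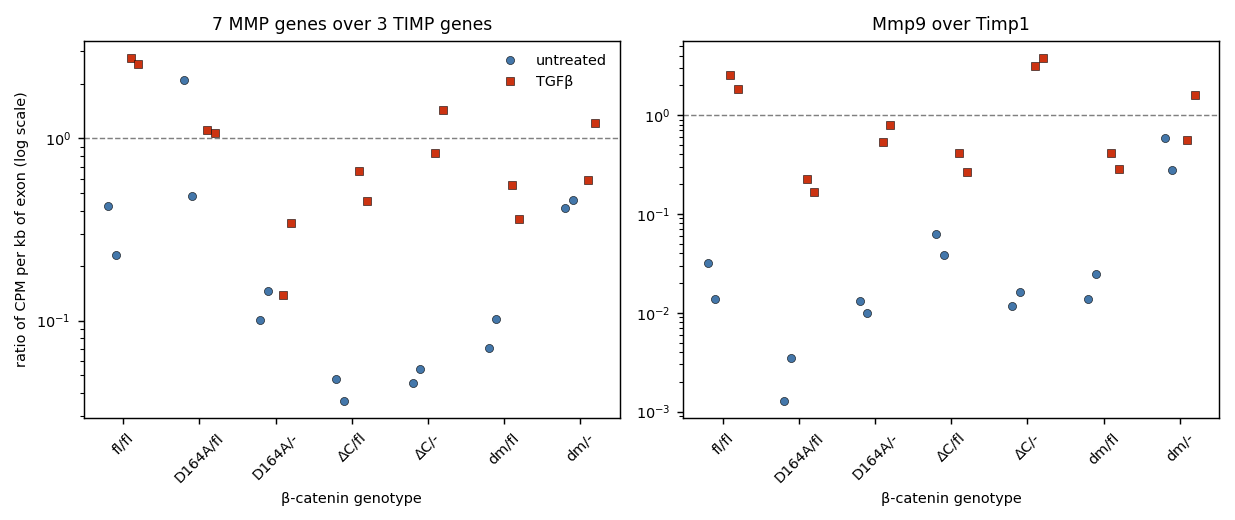
Ratio of the summed RNA of the 7 MMPs to that of the 3 TIMPs (left) and of Mmp9 to Timp1 (right), in CPM per kb of exon on a log axis, for each β-catenin genotype without and with TGFβ. Points are the replicates and the dashed line marks a ratio of 1: for the summed RNA, fl/fl cells reach 2.77 and 2.55 with TGFβ, and D164A/- cells 0.138 and 0.343.

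For the pair of Mmp9 and Timp1, the ratio per length rose above 1 in both treated replicates in fl/fl cells (2.54 and 1.84) and ΔC/- cells (3.16 and 3.78). In treated D164A/fl cells it was 0.223 and 0.168. In dm/- cells it was 0.592 and 0.275 without and 0.558 and 1.58 with TGFβ. It was already above 1 in untreated dm/- cells of the Wnt3a experiment (1.11 and 1.52). Per length, Mmp14 was the highest of the 7 MMPs in 11 of the 28 conditions, Mmp3 in 6, Mmp10 in 5, Mmp9 in 4 and Mmp13 in 2. Timp2 was the highest of the TIMPs in 19 conditions, Timp3 in 7 and Timp1 in 2.

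Mmp3, Mmp10 and Mmp13 belong to a run of 10 MMP genes that spans 427 kb of chromosome 9, in the order Mmp13, Mmp12, Mmp1b, Mmp3, Mmp1a, Mmp10, Mmp8, Mmp27, Mmp20 and Mmp7. Of these 6 passed the filter. Mmp12 (macrophage elastase, chr9:7344397-7360461), between Mmp13 and Mmp3, rose with TGFβ in all 7 genotypes, by 2.94 to 7.77 on the log2 scale. In ΔC/fl cells it went from 1.44 and 0.635 CPM to 719.6 and 261 CPM, and in dm/fl cells from 0.435 and 0.319 CPM to 21.2 and 4.01 CPM. The genes of the run did not move alike. Mmp1b, which lies between Mmp12 and Mmp3 and was at most at 14.7 CPM, was called in no genotype, and Mmp8 was at most at 0.116 CPM. The first listed start of Mmp12 has no TGANTCA in its window, and the second has one 44 bases before it.

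**Figure D5:**
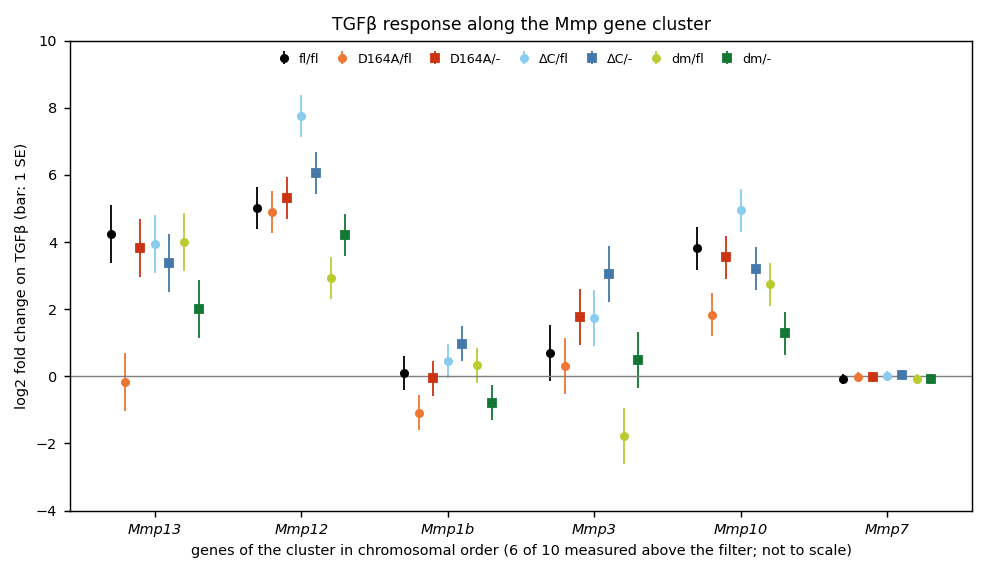
TGFβ responses of the 6 genes of the chromosome 9 run that passed the filter, in their order along the chromosome (not to scale), as log2 fold changes of CPM + 1 from limma with bars of 1 SE. Each point is a genotype: all 7 lie between 2.94 and 7.77 for Mmp12, whereas those for Mmp7 lie within 0.0921 of 0 and Mmp3 and Mmp1b on both sides of it.

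Other MMP genes were followed as a list of 16, of which 10 passed the filter. Apart from Mmp12, TGFβ lowered Mmp15, a membrane-type MMP, in ΔC/fl cells (91.6 and 37.9 to 10.4 and 6.72 CPM) and ΔC/- cells (39.6 and 33.2 to 7.10 and 8.57 CPM). Mmp16 rose in fl/fl cells (0.403 and 1.12 to 4.21 and 5.19 CPM) and fell in dm/fl cells (5.44 and 3.86 to 2.71 and 0.559 CPM), and Mmp19 rose in dm/- cells (6.75 and 4.74 to 58.1 and 52.8 CPM). In each genotype 1 or 2 of the 10 were called up and at most 1 down. For this and the next 3 lists, 2.5 to 3.68% of all genes were called up and 0.88 to 6.88% down, depending on the genotype. The fourth inhibitor, Timp4, was at most at 0.151 CPM.

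Of 10 other inhibitors, activators and partners of MMPs 7 passed the filter, with at most 1 called up and 2 down in a genotype. Cldn1, a tight junction claudin, fell in 4 genotypes. Lcn2, whose protein binds MMP9, fell in 2. Of 12 ADAM and ADAMTS proteinases, all of which passed the filter, 1 to 3 were called up and 0 to 3 down in each genotype. Adam12 rose in 6 genotypes (log2 1.42 to 4.91 over all 7), Adamts4 in 5 and Adamts15 in 4.

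Of 16 AP-1, ETS and Runx factors 15 passed the filter, with 0 to 3 called up and 0 to 2 down in a genotype. Fosb, an AP-1 subunit, rose in 3 genotypes. Runx1 rose in 2 and Runx2 fell in 2.

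By Pearson correlation over the 28 condition means of log2(CPM + 1), the genes most alike to Mmp9 were Syn1 (r = 0.884), Prdx5 (0.864) and Csf2 (0.864). For Mmp13 they were Rnmt (0.875), Fbxo38 (0.846) and Enah (0.818), and for Mmp3 Parp8 (0.797), Fads1 (0.793) and Rsc1a1 (0.792). For Timp1 they were Fxyd5 (0.881), Elk3 (0.879) and Capn2 (0.867), and for Timp3 Rab38 (0.855), Dixdc1 (0.816) and Adamts5 (0.814). Among the members the highest value was that of Mmp10 and Mmp13 (0.771). The 28 means come from 7 genotypes with shared lines and are not independent points.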

How the data were processed

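Poly(A) RNA of 56 samples was sequenced as stranded libraries, mapped by the authors to mm10 with STAR (the version is not given in the sources used here) and counted over the exons of RefSeq genes. The deposited values are a signal, counts per M reads of an effective library size (CPM), whose scaling is not stated. In each sample 100% of values were whole multiples of 1 read (within 0.001 reads), so that reads could be recovered. Depth was 22.4 to 33.7 M reads, with scaling factors of 0.809 to 1.14. Intervals and floors cover counting error only.

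The members and lists were chosen with earlier results of these data known. The 13754 genes that reached 1 CPM in 2 or more samples were tested on log2(CPM + 1) with limma 3.58.1 in R 4.3.3 (1 mean per condition, 56 samples, empirical Bayes with trend). Calls required an adjusted p of at most 0.05 and a log2 change of at least 1. As an alternative test, edgeR 4.0.16 (quasi-likelihood) on the recovered reads called 376 to 1443 genes per TGFβ comparison, against 465 to 1420 with limma. The other alternatives were a pseudocount of 0.1, no filter, median of ratios scaling, only the experiment compared, a block for the replicate number, removal of the GC trend, both together, and leaving out each library. The study calls the replicates biological, but their origin is not given further, and p-values measure the spread between these samples. Replicates differed beyond sampling noise (chi-square per degree of freedom 25.1 to 1053).

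All 10 members were named in the results. Of the other lists, the further MMP genes called on TGFβ were named, and up to 3 genes of each remaining list among those called in the most genotypes. The 3 genes most correlated with Mmp9, Mmp3, Mmp13, Timp1 and Timp3 were named too. Exon lengths were taken from GENCODE vM21 and positions from RefSeq GRCm38.p6. Figures were drawn with matplotlib 3.10.9. The gene chosen to check the TGFβ treatment is not reported here.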

Additional observations from a re-analysis of the deposited data

Results flagged for a closer look

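A difference in the TGFβ response between 2 genotypes, tested as an interaction in limma, was called for 7 of 90 values. For Timp2 it was 2.25 on the log2 scale for D164A/- against fl/fl cells (adjusted p = 4.92e-04) and 1.86 for dm/- against dm/fl cells (adjusted p = 0.00279). For Mmp9 it was 6.0 for ΔC/- against ΔC/fl cells (adjusted p = 0.00268). These 3 held whichever library was left out. The other 4 did not: Mmp13 for D164A/fl against fl/fl (-4.40, adjusted p = 0.0293), Mmp9 for ΔC/fl against fl/fl (-4.28, adjusted p = 0.047) and for dm/- against fl/fl (-4.24, adjusted p = 0.0497), and Timp3 for dm/- against dm/fl (1.93, adjusted p = 0.0454).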

How the results depend on the processing

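With 2 replicates a condition, leaving out 1 library leaves a condition with a lone sample, which is assumed to vary like the others. Members called on TGFβ then numbered 3 to 4 in fl/fl, 1 in D164A/fl, 2 to 5 in D164A/-, 3 to 4 in ΔC/fl and in ΔC/-, 3 to 5 in dm/fl and 0 to 2 in dm/- cells. Calls on Wnt3a numbered 0 to 6. Differences in the TGFβ response numbered 1 to 6 against fl/fl and 2 to 4 between second alleles. Differences in untreated levels against fl/fl numbered 28 to 40 and 29 to 38 in the TGFβ and Wnt3a experiments, and between second alleles 13 to 16 and 10 to 12.

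Same-numbered replicates were not said to share a day or culture. Their deviations correlated with r = -0.1971 to 0.66 over the genotypes on TGFβ (median 0.4636) and with -0.0678 to 0.932 on Wnt3a (median 0.7356). With 1 pair of each kind below 0, in ΔC/- cells on TGFβ and dm/fl cells on Wnt3a, the numbers were not taken as pairs. With a replicate block, calls rose from 3 to 5 in fl/fl and from 1 to 3 in D164A/fl cells on TGFβ, from 3 to 5 on Wnt3a, and from 4 to 11 and 3 to 6 for response differences against fl/fl and between second alleles. Calls over all genes rose too, on TGFβ from 860 to 1163 in fl/fl and from 465 to 910 in D164A/fl cells, and for the response difference of ΔC/fl and fl/fl from 370 to 782. With the block and removal of the GC trend the 5 member counts were 5, 3, 6, 17 and 8, and 7 members were called in D164A/-, ΔC/fl and dm/- cells. Calls over all genes rose in that setting as well. On TGFβ they went from 559 to 946 in D164A/-, from 1064 to 1503 in ΔC/fl and from 842 to 1457 in dm/- cells. For the response difference of ΔC/fl and fl/fl they went from 370 to 1062. With the numbers crossed in ΔC/- cells, an alternative chosen after seeing the data, 6 members were called there, as without a block.

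Response differences against fl/fl fell from 4 to 2 with a pseudocount of 0.1, with no filter and with edgeR, and numbered 11 in a fit to only the experiment compared. That fit gave 5 differences between second alleles, 1 call on Wnt3a and 3 in D164A/fl cells on TGFβ. D164A/fl cells had 2 calls on TGFβ with a pseudocount of 0.1 and with edgeR, and 3 after removal of the GC trend, and dm/- cells had 2 with no filter. Over single values of members, edgeR kept 172 on their side of the threshold, moved 3 past it and took 12 from it. The causes were not tested.

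Signs turned only for TGFβ responses that were not called. Removal of the GC trend, with and without the block, gave 0.23 for Mmp13 and -0.011 for Mmp2 in D164A/fl cells. Without 1 library each, the values ranged in D164A/fl cells from -1.18 to 0.84 for Mmp13 (0.08 without treated replicate 2), from -0.15 to 0.52 for Mmp2 (-0.06 without treated replicate 2) and from -0.59 to 1.21 for Mmp3. In D164A/- cells they ranged from -0.11 to 1.45 for Mmp2 and from -0.036 to 0.81 for Timp3. In ΔC/- cells they ranged from -0.19 to 0.14 for Mmp11 (0.025 without untreated replicate 2) and from -0.069 to 0.35 for Mmp2. For Mmp11 in fl/fl cells they ranged from -0.033 to 0.36 (-0.0018 without treated replicate 1).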
